A study of Mus musculus with 9 samples.

Results

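Chemokine ligands and their receptors were described in the lungs of mice whose heads had been irradiated. The genes were taken by name: symbols that start with Ccl, Cxcl, Ccr or Cxcr followed by a digit, and Cx3cl1, Cx3cr1, Xcl1, Ackr2 and Ackr3. A gene also needed a nonzero count in at least 3 of the 9 libraries. Of the 22564 genes in the table, 54 met the rule, and they carry 53 symbols because Ccl25 has 2 entries. Of the entries, 34 encode ligands and 20 encode receptors. Another 4 genes carried such a name without meeting the rule: Ccl21b, Ccl26 and Ccl27b were listed at 0 in all libraries, and Ccl1 was detected in 2.

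Chemokines are small secreted proteins that attract leukocytes along gradients held on cell surfaces and matrix, and most act through G protein-coupled receptors on the migrating cell. Inflammatory members are induced by cytokines and interferons, while homeostatic members such as Cxcl12 and Ccl21a are made without a stimulus and guide lymphocytes, dendritic cells and progenitors. Atypical receptors bind chemokines without G protein signalling and remove them from the tissue. In lung, epithelium, endothelium, lymphatic vessels and resident macrophages all make chemokines.

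The series asks about bystander effects, that is, changes in an organ outside the irradiated field. All mice, sham controls included, belong to a strain labelled GFP-LC3, which carries an autophagy protein fused to a fluorescent protein. There were 3 libraries from sham-irradiated mice, 3 from mice that received X-rays to the whole brain once (10 Gy at 2 Gy per min) and 3 from mice that received the same exposure weekly, 3 times in all. These groups are called sham, single and weekly here. Between single and weekly, the number of exposures, the total dose and the weeks on study differ together, so their parts cannot be told apart. The labels give no age, sex, time from exposure to collection or schedule for the sham group. They number the libraries but do not say that each is a separate animal, so all p-values measure the spread between these libraries, which may be technical.

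RNA was depleted of ribosomal RNA, and fragments per library ranged from 4987866 to 7381021. Library 1 of the single group stood apart on the first principal component (92.2, against -29.3 to 2.35 in the others, with 39.7% of the variance) and held 5180 CPM (counts scaled to library size) of Myh6, a heart muscle myosin, against 10.3 to 243 elsewhere. Sham library 1 lay between the other sham libraries in 70.9% of genes, whereas no other library lay between its own group mates in more than 42.6%. The labels do not say whether it came from an animal of its own, and this was not tested. If it is not independent of the other sham libraries, every SE and p against sham given here is too small. Those between the irradiated groups can then be too small as well, since all groups share the same estimate of the spread. Sham library 1 also held 800 CPM of Myh4, a skeletal muscle myosin listed at 0 in the other 8. Values without these libraries are given beside the results that they move. Lung markers were present in all libraries, with 1450 to 7000 CPM of Sftpc, the surfactant protein of alveolar type 2 cells. The 1450 CPM was in single library 1, against 3980 to 7000 CPM elsewhere. Summed markers of alveolar type 1 cells and of endothelium were also lowest in that library.

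Promoters of 4 ligands around which the results turn are shown first. Cxcl9 and Cxcl10, neighbours on chromosome 5 and known targets of interferon, both had a higher mean in the single group than in sham. Ccl21a was lower and Ccl9 higher in every irradiated library than in every sham library. Each sequence holds the 250 bases before the RefSeq start of the gene on GRCm38.p6, written in the direction of the gene, and all 4 genes lie on the minus strand. The windows are chr5:92328080-92328329 for Cxcl9, chr5:92348890-92349139 for Cxcl10, chr4:42773992-42774241 for Ccl21a and chr11:83578637-83578886 for Ccl9. Capitals mark matches on either strand to GAAANNGAAA (N is any base), a form of the interferon-stimulated response element, or to GGGNNNTNCC, a form of the NF-kB site.
Cxcl9: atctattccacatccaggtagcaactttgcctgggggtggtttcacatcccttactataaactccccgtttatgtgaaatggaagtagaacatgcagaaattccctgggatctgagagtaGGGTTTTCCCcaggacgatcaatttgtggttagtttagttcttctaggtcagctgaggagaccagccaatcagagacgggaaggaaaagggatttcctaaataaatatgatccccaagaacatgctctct
Cxcl10: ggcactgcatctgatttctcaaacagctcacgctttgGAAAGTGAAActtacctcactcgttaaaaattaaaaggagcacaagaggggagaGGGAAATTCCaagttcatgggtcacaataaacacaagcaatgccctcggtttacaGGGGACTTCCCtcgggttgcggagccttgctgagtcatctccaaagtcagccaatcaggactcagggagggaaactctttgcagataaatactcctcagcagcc
Ccl21a: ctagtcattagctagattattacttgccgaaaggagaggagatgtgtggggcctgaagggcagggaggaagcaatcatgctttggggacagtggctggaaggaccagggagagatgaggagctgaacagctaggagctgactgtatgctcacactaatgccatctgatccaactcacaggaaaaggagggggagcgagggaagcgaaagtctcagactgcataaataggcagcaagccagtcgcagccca
Ccl9: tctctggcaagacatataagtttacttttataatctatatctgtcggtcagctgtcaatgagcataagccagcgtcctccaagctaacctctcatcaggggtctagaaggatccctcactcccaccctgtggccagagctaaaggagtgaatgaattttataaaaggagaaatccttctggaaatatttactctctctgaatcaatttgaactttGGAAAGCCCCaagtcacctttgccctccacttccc
Cxcl10 holds 1 match to the interferon element and, further towards the start, 3 matches to the NF-kB letters, of which 2 overlap. Cxcl9 holds 1 NF-kB match, Ccl9 holds 1 on the opposite strand, and Ccl21a holds none. RefSeq promoters were found for 40 of the 53 symbols (44 promoters). Of these 44, 13 hold an NF-kB match (29.5%), against 14.9% of all 32851 mouse promoters of the same length, and 3 hold an interferon element match (6.82%), against 2.98%. A match describes letters and not binding.

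The levels of the 54 genes, in FPKM (fragments scaled to gene length and library size), spanned from 330 for Cxcl15 to 0.0424 for Ccr1l1, as means over the 9 libraries. Cxcl15, a lung epithelial chemokine of mice also called lungkine, held between 17.0 and 49.3% of the summed FPKM of all chemokine genes in a library. It was followed by Ccl6, a macrophage chemokine of rodents, at 90.7 FPKM and by the homeostatic ligand Cxcl12 at 41.1 FPKM. Cxcr4, the receptor of Cxcl12, was the highest receptor, at 35.8 FPKM, and Ccr2, the receptor that brings monocytes out of the bone marrow, followed at 26.4 FPKM. Of the neutrophil chemokines, Cxcl5, Cxcl1 and Cxcl2 had means of 5.06, 3.26 and 0.307 FPKM. That of Cxcl5 rested on weekly library 1 (37.2 FPKM, against 0.366 to 2.93 FPKM elsewhere), and without it the means of Cxcl5 and Cxcl1 were 1.05 and 2.92 FPKM.

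**Figure D1:**
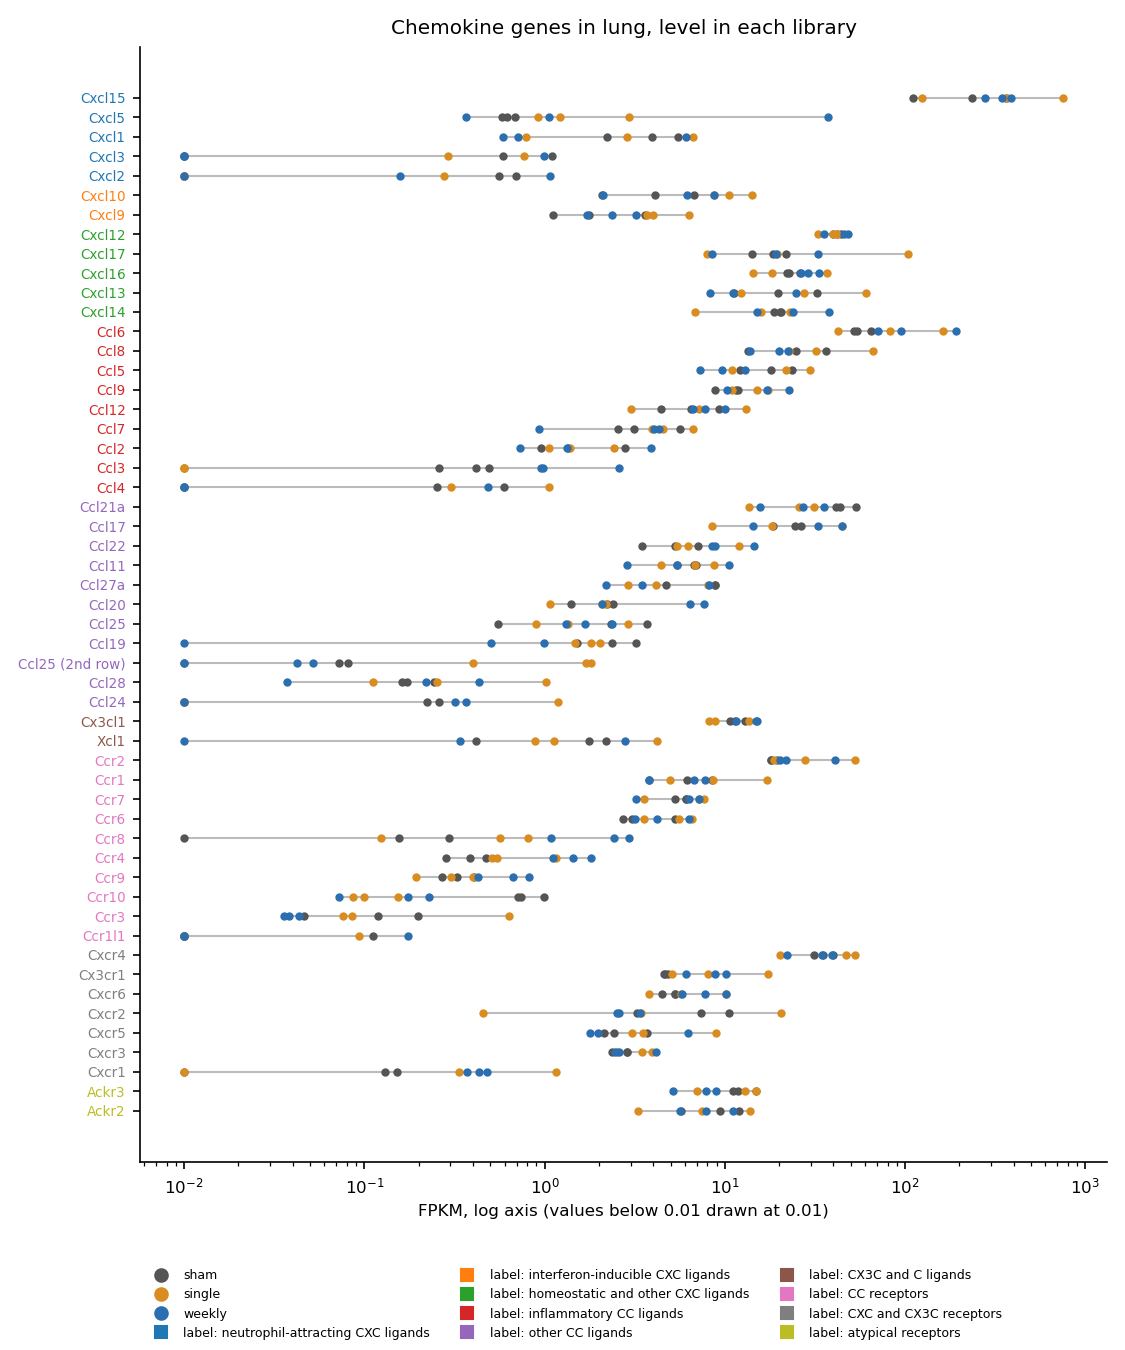
FPKM of 53 of the chemokine entries in each of the 9 libraries on a log axis, with points coloured by group, gene names coloured by role and a grey line from the lowest to the highest library. Cxcl15 stands at 110 to 753 FPKM, and several ligands and receptors lie below 1 FPKM with libraries at 0.

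The counts were then compared between groups with edgeR, in a single fit over all genes that passed a filter on low counts. Of the 54 chemokine genes, 40 passed, 25 of them ligands and 15 receptors, and the other 14 had 4 to 76 fragments over all libraries. Of the 40, 29 were above the filter's level of 1.63 CPM in every library, while Ccr4, Ccr9 and Cxcl5 reached it in no sham library, so these 3 entered the test only through irradiated libraries. The filter's CPM was taken before normalisation between libraries, so it differs slightly from the CPM printed here. Comparisons against sham share the same 3 sham libraries and are not independent.

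No chemokine gene passed edgeR's test at an adjusted p under 0.05 in any comparison, and nor did any other gene (0%). At an unadjusted p under 0.05, 4 of the 40 were higher in the single group than in sham, among them the macrophage ligand Ccl9, the interferon-induced ligand Cxcl9 and the receptor Cx3cr1. Against this, 6.60% of all 14074 genes tested were higher at that p. The lymphatic ligand Ccl21a and Cxcl12 were lower, that is 2 of 40, against 5.43% of all genes. In either direction edgeR had 1693 genes at that p in this comparison (12.0%), DESeq2 called 198 genes (1.41%) and limma 6. Ccl21a was the 1 chemokine gene that DESeq2 called, and DESeq2 did not call it without sham library 1.

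In the weekly group, 7 of 40 were higher than in sham at an unadjusted p under 0.05: Ccl6, Ccl9, Ccl20, Ccl22, Cxcl5, Ccr4 and Ccr9, against 4.26% of all genes. Ccl22 is a ligand of Ccr4, which regulatory and type 2 helper T cells carry. Ccl21a and the scavenging receptor Ackr3 were lower, against 3.64% of all genes. Over all genes, edgeR had 1112 at that p (7.90%), DESeq2 called 89 genes (0.632%), 0 of them chemokine genes, and limma called 0. Since Ccr4, Ccr9 and Cxcl5 entered the test only through irradiated libraries, the 7 cannot be read against that share.

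Between the irradiated groups, Ccl20, Ccr4, Ccr9 and Cxcl5 were higher after weekly than after single exposure at an unadjusted p under 0.05, that is 4 of 40, against 2.79% of all genes, and none was lower, against 3.74%. These 4 passed the filter mainly or only through the libraries where they are high, Ccl20 in no single library and Ccr9 in 1, so the 4 cannot be read against that share. Over all genes, 920 had such a p (6.54%), DESeq2 called 5 genes (0.0355%), 0 of them chemokine genes, and limma called 3. In both irradiated groups pooled as a mean, 5 of 40 were higher than in sham, among them Ccl9, Ccl22, Ccr4 and Cx3cr1, against 5.52%, and Ccl21a was lower, 1 of 40 against 5.39%. There, 1536 genes had such a p (10.9%), DESeq2 called 200 genes (1.42%), 1 of them a chemokine gene (Ccl21a), and limma called 1. Since Ccr4 entered the test only through irradiated libraries, the 5 cannot be read against the 5.52%.

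The median log2 change of the 40 chemokine genes was 0.15 in the single group against sham and 0.24 in the weekly group, where the medians over all genes tested were 0.03 and 0.02. By the fit, 25 of 40 (62.5%) were higher in the single group and 26 (65.0%) in the weekly group, beside 53.8 and 52.4% of all genes. Between the irradiated groups the median was 0.06, beside -0.01 for all genes. These medians and counts describe the genes that passed the filter and not all 54. They include Ccr4, Ccr9 and Cxcl5, which entered the test only through irradiated libraries, so they cannot be read against the values over all genes.

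The groups of libraries did not overlap for 7 of the 40 genes in the single group against sham. Of these, 5 were higher (among them Ccl9, Ccr4, Cxcl5 and Cxcl10), where 10.2% of all genes were, and 2 were lower (Ccl21a and Cxcl12), where 10.7% were. In the weekly group 8 were higher without overlap (Ccl6, Ccl9, Ccl20, Ccl22, Ccr4, Ccr9, Cx3cr1 and Cxcr6), where 10.8% of all genes were. Another 4 were lower (Ccl5, Ccl21a, Cxcr2 and Ackr3), where 11.1% were. Over all 6 irradiated libraries, Ccl9 and Ccr4 lay above every sham library, where 3.73% of all genes did, and Ccl21a lay below every one, where 4.49% did. Between the irradiated groups 4 were higher after weekly exposure without overlap (Ccl20, Ccr4, Ccr9 and Cxcl12), where 4.10% of all genes were, and Cxcl9 was lower, where 3.86% were. Ccr4, Ccr9 and Cxcl5 entered the test only through irradiated libraries, and Ccl20 reached the filter's level in no single library. The counts that hold these genes cannot be read against the shares.

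**Figure D2:**
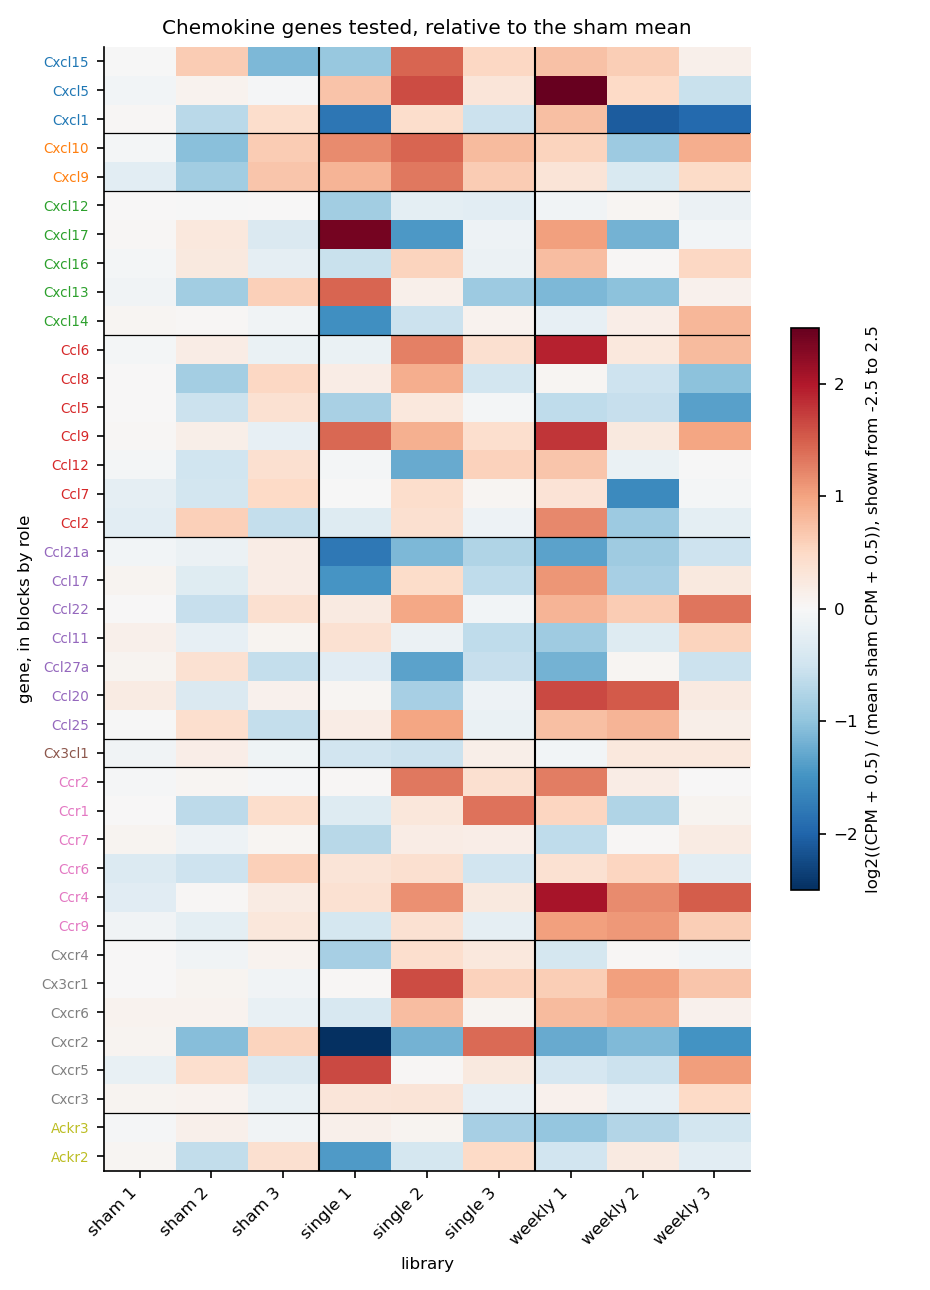
Log2 ratio of CPM to the sham mean (0.5 CPM added to both) for 39 of the 40 chemokine genes tested, in each of the 9 libraries, with genes in blocks by role and the colour scale ending at -2.5 and 2.5. Ccl21a is blue in all 6 irradiated libraries, Ccl9 and Ccr4 are red in all 6, and Cxcl5 is beyond the scale in weekly library 1 only.

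Leaving out sham library 1 left 1 chemokine gene at an unadjusted p under 0.05 in the single group, Ccl21a, with 5.34% of all genes at that p. In the weekly group it left 8, with 3.44% of all genes: Ccl9, Ccl20, Ccl22, Ccr4, Cxcl5 and Ccr8 higher and Ccl21a and Ackr3 lower, Ccr8 having then passed the filter. As Ccr4, Ccr8 and Cxcl5 pass it only through irradiated libraries, this count too cannot be read against the share. For both irradiated groups against sham it left 2, Ccl9 and Ccl21a, with 4.44% of all genes, and Ccr4, Ccl22 and Cx3cr1 then had unadjusted p-values of 0.0607, 0.0936 and 0.0594. Between the irradiated groups it left 2, Ccl20 and Ccr8, both higher after weekly exposure, with 4.23% of all genes. Ccr4, Ccr9 and Cxcl5 then no longer had such a p. Ccl20 and Ccr8 pass the filter mainly or only through weekly libraries, so the 2 cannot be read against the 4.23%. Leaving out library 1 of the single group gave 6 in that group, with Ccl21a, Cx3cr1 and Cxcl9 still among them, Ccr2 and Cxcl15 added, and Ccl9 and Cxcl12 no longer, with 13.5% of all genes at that p. It also gave 13 in the weekly group (12.2% of all genes), 10 for both groups against sham (15.2%) and 5 between the irradiated groups (7.35%). In the last, Ccl20 and Ccr8 were higher and Ccl5, Cxcr2 and Cxcr4 lower after weekly exposure. These 3 counts hold genes that pass the filter mainly or only through libraries where they are high, so they cannot be read against the shares. Leaving out weekly library 1 gave 5 in the weekly group, with 7.73% of all genes: Ccl22, Ccr4 and Ccr8 higher, Ccl21a and Cxcl1 lower. Ccl20, Ccl6, Ccl9, Ccr9, Cxcl5 and Ackr3 then no longer had such a p. As Ccr4 and Ccr8 pass the filter only through irradiated libraries, the 5 cannot be read against the 7.73%.

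Ccl21a, made by lymphatic endothelium and lymph node stroma, attracts dendritic cells and T cells through Ccr7. The gene lies at chr4:42772860-42773993. Its normalised counts were 39.6, 37.7 and 47.8 CPM in sham, 11.7, 18.9 and 24.4 CPM after single exposure, and 16.2, 22.3 and 28.8 CPM after weekly exposure. All 6 irradiated libraries lay below all 3 sham libraries, and the irradiated groups overlapped each other. The log2 change was -1.18 ± 0.29 (SE) for the single group, with an unadjusted p of 0.00277 and an edgeR adjusted p of 0.240, and DESeq2 gave an adjusted p of 0.0300. For the weekly group the log2 change was -0.89 ± 0.29, with an unadjusted p of 0.0131, an edgeR adjusted p of 0.5 and a DESeq2 adjusted p of 0.255. For both irradiated groups together it was -1.04 ± 0.24 (edgeR adjusted p = 0.203, DESeq2 adjusted p = 0.0235). Without sham library 1, DESeq2 called Ccl21a in none of these comparisons.

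The unadjusted edgeR p of Ccl21a stayed under 0.05 whichever library was left out, with log2 changes from -1.44 to -0.94 for single and from -1.11 to -0.70 for weekly exposure, the largest p being 0.0495 without weekly library 1. In whole tissue, fewer cells of a type and less RNA per cell cannot be told apart. Markers of lymphatic endothelium, of which 6 of 6 were measured and none was at 0 throughout, summed to 132 to 199 FPKM in sham, 82.1 to 179 FPKM in single and 61.2 to 169 FPKM in weekly libraries. The lowest sums were those of library 1 of each irradiated group, which also had the least Ccl21a in their groups. In single libraries 2 and 3 and weekly library 2 the sum (179, 177 and 169 FPKM) lay within the sham range while Ccl21a lay below it. Their median marker, as a log2 ratio to the sham mean, was -0.13, -0.13 and -0.12, within the sham range of -0.16 to 0.22. The lymphatic gene Mmrn1 was at 58.6 to 88.6 CPM in sham, 37.6 to 52.0 in single and 22.9 to 52.6 in weekly libraries. It was thus below sham in every irradiated library. Reln was below sham in all of them but single library 1, and Lyve1, Flt4 and Prox1 overlapped sham. The part of lymphatic cell number in the Ccl21a values was not tested. The deposited locus of Ccl21a is shared with 4 other genes, so its values are uncertain. Ccl21a has near-identical copies in the mouse genome, so its reads can be split among them. The copy Ccl21b was listed at 0.

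Ccl19, the other Ccr7 ligand, was too low to be tested, with 7, 8 and 10 fragments in sham, 8, 5 and 7 in single and 0, 2 and 4 in weekly libraries. All 3 weekly libraries lay below all sham and single libraries, at counts where a few fragments decide the order. The deposited locus of Ccl19 is likewise shared with 4 other genes. Ccr7 itself, carried by migrating dendritic cells and naive T cells, was at 14.3, 12.4 and 14.2 CPM in sham, 8.19, 15.5 and 15.3 CPM in single and 8.55, 13.9 and 15.7 CPM in weekly libraries. Library 1 of each irradiated group lay below sham and the other irradiated libraries lay within or just above its range.

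**Figure D3:**
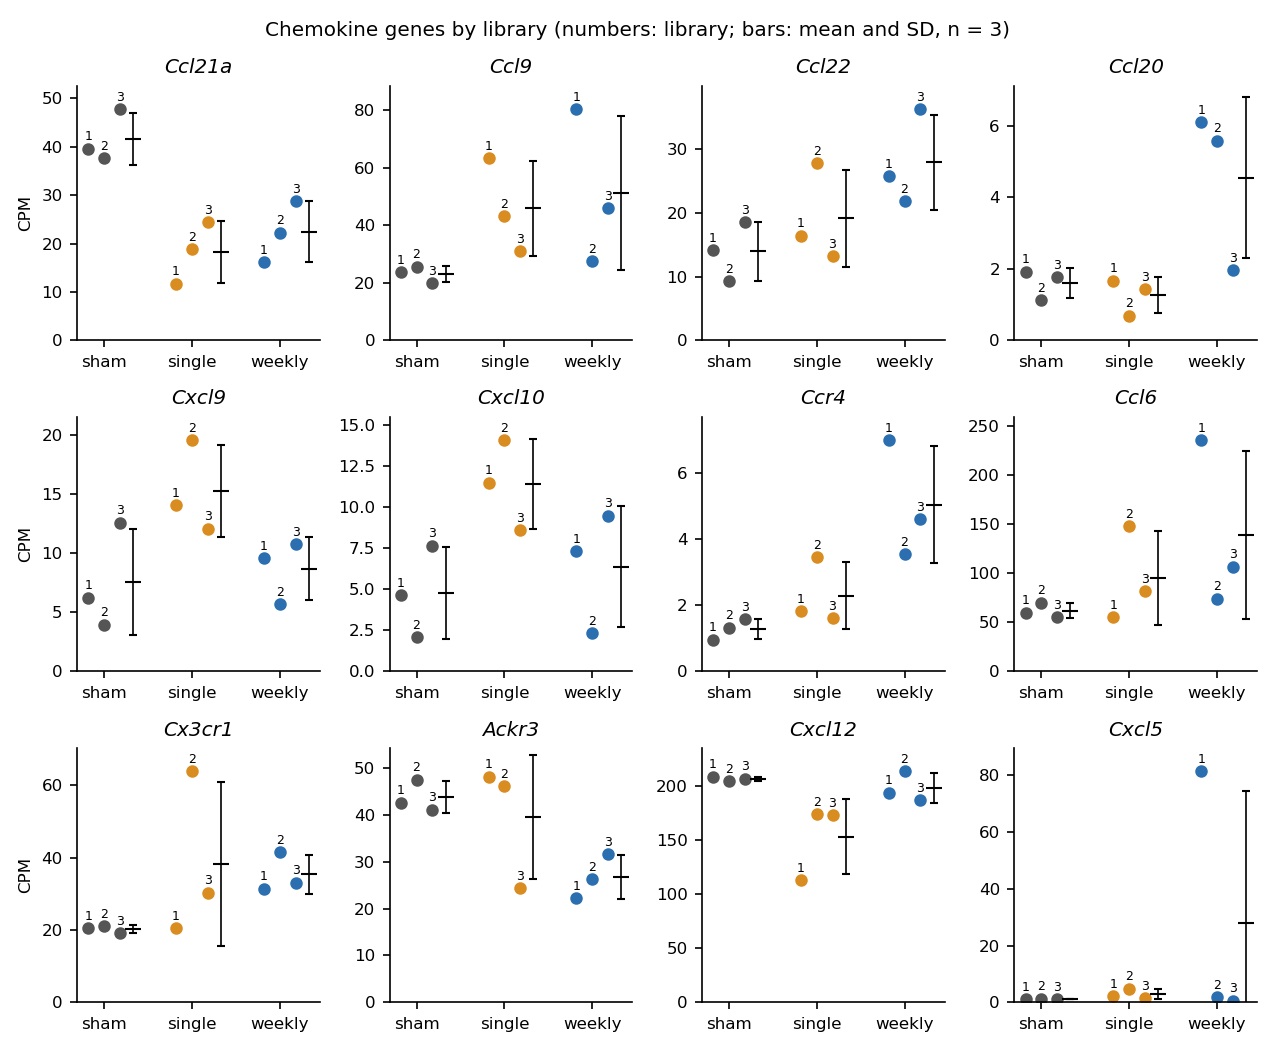
CPM of 12 chemokine genes in each library, on axes that start at 0, with library numbers beside the points and the group mean and SD (n = 3) as a black bar beside each group; the lower end of the bar of weekly Cxcl5 is cut off at 0. Ccl21a is below sham in all irradiated libraries, Ccl9 is above it in all, and the weekly value of Cxcl5 rests on library 1.

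Among the inflammatory CC ligands, Ccl9 and Ccl6 are neighbours on chromosome 11 that are made by mouse macrophages and bind Ccr1. Ccl9 was at 23.7, 25.6 and 19.9 CPM in sham, 63.4, 43.2 and 31.0 CPM in single and 80.4, 27.5 and 46.0 CPM in weekly libraries. Every irradiated library lay above every sham library, by little in weekly library 2. The log2 change was 0.99 ± 0.38 for single exposure (unadjusted p = 0.0291, edgeR adjusted p = 0.376) and 1.15 ± 0.39 for weekly exposure (unadjusted p = 0.0147, edgeR adjusted p = 0.521). Without library 1 of the single group the change was 0.68 (unadjusted p = 0.0986), and without library 1 of the weekly group it was 0.67 (unadjusted p = 0.0761). The unadjusted p was also 0.0596 without sham library 1 and 0.0860 without sham library 3 in the single group, and 0.0502 without sham library 3 in the weekly group.

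Ccl6 was at 60.1, 70.3 and 55.1 CPM in sham, 55.2, 148 and 81.9 CPM in single and 236, 74.3 and 107 CPM in weekly libraries. The weekly group did not overlap sham, and single library 1 lay within it. The weekly log2 change was 1.17 ± 0.45 (unadjusted p = 0.0284, edgeR adjusted p = 0.581), and without weekly library 1 it was 0.55 (unadjusted p = 0.180). The unadjusted p was 0.0659 without sham library 1 and 0.0796 without sham library 3. Alveolar macrophage markers, 9 of 12 of which were measured and none of which was at 0 throughout, summed to 114 to 121 FPKM in sham, 150 to 289 FPKM in single and 185 to 273 FPKM in weekly libraries. All 6 irradiated libraries lay above sham in that sum. The median marker, as a log2 ratio to the sham mean, was above the sham range in 5 of them but below it in single library 1, at -0.47 against -0.18 to 0.11, and that library had the most Ccl9 of its group. Its part in the Ccl9 and Ccl6 values was not tested.

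Ccl2, which draws monocytes through Ccr2, was low, at 1.12, 2.45 and 0.787 CPM in sham, 1.06, 2.07 and 1.28 CPM in single and 4.01, 0.545 and 1.15 CPM in weekly libraries. The groups overlapped, with the highest and the lowest value both in the weekly group. Ccr2, carried by monocytes, was at 79.4, 83.7 and 79.7 CPM in sham, 82.1, 202 and 107 CPM in single and 198, 91.8 and 81.9 CPM in weekly libraries. Single library 2 and weekly library 1 were highest, and the 3 sham libraries were close together. Monocyte markers (9 of 9 measured, none at 0 throughout) summed to 273 to 340 FPKM in sham, 168 to 405 FPKM in single and 159 to 337 FPKM in weekly libraries. The 405 FPKM was in single library 2, and the 159 FPKM in weekly library 1, so the sum was high in one and low in the other of the libraries high in Ccr2. Of the other inflammatory CC ligands tested, Ccl5, Ccl7, Ccl8 and Ccl12, none had an unadjusted p under 0.05.

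Ccl22, made by dendritic cells and macrophages and a ligand of Ccr4, was at 14.1, 9.24 and 18.5 CPM in sham, 16.4, 27.7 and 13.2 CPM in single and 25.7, 21.8 and 36.2 CPM in weekly libraries. The weekly libraries were all above sham, and the single libraries overlapped both groups. The weekly log2 change was 1.00 ± 0.35 (unadjusted p = 0.0180, edgeR adjusted p = 0.540), and the unadjusted p was 0.0673 without sham library 2 and 0.0745 without weekly library 3.

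Ccr4, the receptor of Ccl17 and Ccl22, was at 0.961, 1.32 and 1.57 CPM in sham, 1.82, 3.44 and 1.60 CPM in single and 6.98, 3.54 and 4.59 CPM in weekly libraries. These are 6 to 8 fragments per sham library, 10 to 20 per single library and 26 to 40 per weekly library. The 3 groups lay in that order without overlap, the lowest single library only just above the highest sham library. The weekly log2 change was 1.96 ± 0.48 (unadjusted p = 0.00251, edgeR adjusted p = 0.401, DESeq2 adjusted p = 0.0835), with 1.65 to 2.16 and an unadjusted p of at most 0.0181 when any library was left out. Against the single group it was 1.13 ± 0.45 (unadjusted p = 0.0325), which ranged from 0.0130 to 0.135 with libraries left out. Ccr4 passed the filter only through irradiated libraries, where it is high, so these p-values cannot be taken at face value.

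Ccr8, another receptor of regulatory and type 2 helper T cells, was outside the rule for genes described library by library and is named after its values were seen. It had 0, 2 and 1 fragments in sham, 1, 5 and 4 in single and 9, 21 and 21 in weekly libraries. The weekly libraries lay above all others. It did not pass the count filter, and without the filter edgeR gave a log2 change of 3.70 ± 1.00 (unadjusted p = 0.00397, edgeR adjusted p = 0.512). Foxp3, the defining factor of regulatory T cells, was at 1.51 to 1.77 CPM in sham, 0.516 to 2.12 CPM in single and 1.5 to 4.01 CPM in weekly libraries. Of other genes of these cells, Il2ra was at 1.77 to 4.9, 8.14 to 10.5 and 6.13 to 8.68 CPM, Ctla4 at 2.45 to 10.6, 2.55 to 9.47 and 3.82 to 4.89 CPM, and Ikzf2 at 41.8 to 47.1, 35.4 to 73.3 and 34.1 to 41.1 CPM. Thus Il2ra was above sham in every irradiated library, Ctla4 overlapped, and Ikzf2 was below sham in the weekly libraries. T cell markers, 10 of 11 of which were measured with none at 0 throughout, summed to 42.1 to 58.5 FPKM in sham, 49.6 to 71.5 FPKM in single and 43.1 to 65.5 FPKM in weekly libraries. The groups overlapped in that sum. Dendritic cell markers (10 of 10 measured, none at 0 throughout) summed to 275 to 303, 385 to 460 and 337 to 617 FPKM, with all irradiated libraries above sham. Their median log2 ratio to the sham mean was however -0.20 in single library 1 and -0.15 in single library 3, below the sham range of -0.07 to 0.06, and 0.24 to 0.64 in the other 4. Their part in the Ccl22, Ccr4 and Ccr8 values was not tested.

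Ccl20, an epithelial chemokine that attracts cells with Ccr6, was at 1.92, 1.13 and 1.77 CPM in sham, 1.67, 0.689 and 1.44 CPM in single and 6.11, 5.59 and 1.97 CPM in weekly libraries. Weekly libraries 1 and 2 were far above the rest and weekly library 3 was just above the highest sham library, at 12 fragments each. Against the single group the weekly log2 change was 1.82 ± 0.55 (unadjusted p = 0.00855, edgeR adjusted p = 0.753), and its unadjusted p stayed at or below 0.0350 whichever library was left out. Against sham it was 1.49 ± 0.54 (unadjusted p = 0.0223, edgeR adjusted p = 0.549), with an unadjusted p of 0.0810 without sham library 2, 0.0508 without sham library 3, 0.0810 without weekly library 1 and 0.0723 without weekly library 2. By the filter's own CPM, taken before normalisation, Ccl20 reached the filter's level in no single library. The p against the single group thus cannot be taken at face value. Ccr6 was at 4.96, 4.33 and 10.0 CPM in sham, 8.19, 8.61 and 4.47 CPM in single and 8.55, 9.54 and 5.24 CPM in weekly libraries, with the 3 groups overlapping.

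Ccr9, known for guiding T cells to the gut and thymus through Ccl25, was at 1.12, 0.942 and 1.57 CPM in sham, 0.759, 1.72 and 0.958 CPM in single and 2.97, 3.13 and 2.13 CPM in weekly libraries. The weekly libraries lay above the others, at 13 to 23 fragments each. The weekly log2 change was 1.17 ± 0.48 against sham (unadjusted p = 0.0355, edgeR adjusted p = 0.601) and 1.26 ± 0.47 against single (unadjusted p = 0.0258). With libraries left out the unadjusted p ranged from 0.0306 to 0.123 against sham, over 0.05 without sham library 1 or 2 or weekly library 1 or 2. Against single it ranged from 0.0133 to 0.0886, over 0.05 without sham library 1, single library 1 or 3, or weekly library 1 or 2. Ccr9 reached the filter's level in no sham library and in 1 single library. Its deposited locus is shared with 4 other genes, so its values are uncertain.

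The remaining other CC ligands tested, Ccl11, Ccl17, Ccl25 and Ccl27a, had no unadjusted p under 0.05. Ccr10, the receptor of Ccl27a and Ccl28 on skin- and mucosa-homing lymphocytes, also lies outside the rule and is named after its values were seen. It had 9, 8 and 10 fragments in sham, 2, 1 and 1 in single and 3, 1 and 2 in weekly libraries, so all irradiated libraries lay below all sham libraries. Without the count filter edgeR gave a log2 change of -2.54 ± 0.64 for both irradiated groups together (unadjusted p = 0.00251, edgeR adjusted p = 0.258). The deposited locus of Ccr10 is shared with 2 other genes, so its few fragments can in part be theirs.

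The interferon-inducible ligands Cxcl9 and Cxcl10, whose promoters both hold NF-kB matches, draw activated T and NK cells through Cxcr3. Cxcl9 was at 6.25, 3.96 and 12.6 CPM in sham, 14.1, 19.6 and 12.1 CPM in single and 9.60, 5.72 and 10.8 CPM in weekly libraries. Single libraries 1 and 2 lay above all sham libraries, single library 3 lay just under sham library 3, and every single library lay above every weekly library. The log2 change of the single group was 1.01 ± 0.43 (unadjusted p = 0.0420, edgeR adjusted p = 0.398), with an unadjusted p of 0.121 without sham library 1, 0.130 without sham library 2 and 0.133 without single library 2.

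Cxcl10 was at 4.64, 2.07 and 7.67 CPM in sham, 11.5, 14.1 and 8.62 CPM in single and 7.33, 2.32 and 9.50 CPM in weekly libraries. All single libraries lay above sham, and the weekly libraries overlapped both. Its unadjusted p in the single group was 0.0528, with an edgeR log2 change of 1.25 ± 0.56. Cxcr3 was at 5.76, 5.84 and 4.72 CPM in sham, 6.83, 6.89 and 4.63 CPM in single and 5.93, 4.63 and 7.87 CPM in weekly libraries, with overlapping groups. Interferon gamma response genes (15 of 15 measured, none at 0 throughout) summed to 235 to 295 FPKM in sham, 279 to 460 FPKM in single and 247 to 312 FPKM in weekly libraries. Type I interferon response genes (18 of 18) summed to 167 to 196 FPKM in sham, 240 to 458 FPKM in single and 192 to 235 FPKM in weekly libraries. Single library 2 was highest in both sums and in both ligands, and it also held 100 FPKM of summed NK cell markers against 11.9 to 30.4 FPKM elsewhere. The part of these in the ligand values was not tested.

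Among the neutrophil-attracting ligands, Cxcl15 was at 598, 932 and 276 CPM in sham, 312, 1650 and 858 CPM in single and 994, 923 and 659 CPM in weekly libraries. The weekly values lay within the spread of the single group, and weekly library 1 lay just above the highest sham library. Cxcl5, made by alveolar type 2 cells and a ligand of Cxcr2, was at 1.12, 1.32 and 1.18 CPM in sham, 2.28, 4.82 and 1.60 CPM in single and 81.5, 1.91 and 0.655 CPM in weekly libraries. Weekly library 1 alone was high, and weekly library 3 was the lowest of all. The weekly log2 change of 4.51 ± 1.55 (unadjusted p = 0.0170, edgeR adjusted p = 0.529) was 0.10 without weekly library 1 (unadjusted p = 0.884), and the change against the single group turned from 3.27 to -1.14.

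Cxcl1, another Cxcr2 ligand, was at 4.0, 2.26 and 5.51 CPM in sham, 0.759, 5.51 and 2.55 CPM in single and 6.98, 0.545 and 0.655 CPM in weekly libraries, with its highest value in weekly library 1. Cxcl2 was not tested, with 4, 0 and 4 fragments in sham, 2, 0 and 0 in single and 8, 0 and 1 in weekly libraries. Cxcr2, the receptor of both on neutrophils, was at 27.5, 12.3 and 38.8 CPM in sham, 1.67, 11.2 and 70.7 CPM in single and 10.6, 11.9 and 9.01 CPM in weekly libraries. The weekly libraries lay below sham, weekly library 2 only just, and the single libraries held both the lowest and the highest value of all. Neutrophil markers (12 of 12 measured, none at 0 throughout) summed to 391 to 987 FPKM in sham, 127 to 965 FPKM in single and 128 to 248 FPKM in weekly libraries. The sum was likewise below sham in all weekly libraries, and it was highest within the single group in library 3, which had the most Cxcr2. Single library 1, with the least Cxcr2, had a sum of 536 FPKM but the lowest median of the 12 markers of all libraries, a log2 ratio of -2.30 to the sham mean. The part of neutrophil number in the Cxcr2 values was not tested.

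Cxcl12, the homeostatic ligand that holds progenitors and lymphocytes in place through Cxcr4, was at 209, 205 and 207 CPM in sham, 113, 174 and 173 CPM in single and 194, 214 and 187 CPM in weekly libraries. The single libraries lay below all others, library 1 furthest. The log2 change of the single group was -0.43 ± 0.17 (unadjusted p = 0.0334, edgeR adjusted p = 0.383) and -0.25 without single library 1 (unadjusted p = 0.0669), the library with heart transcripts. It was also above 0.05 without any one of the sham libraries, from 0.0698 to 0.0794. Cxcr4 was at 64.1, 60.1 and 67.9 CPM in sham, 35.8, 86.4 and 77.4 CPM in single and 46.9, 65.8 and 61.4 CPM in weekly libraries. Library 1 of each irradiated group lay below sham, and single libraries 2 and 3 lay above it.

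Ackr3, the atypical receptor that takes up Cxcl12, was at 42.6, 47.5 and 41.1 CPM in sham, 48.1, 46.1 and 24.4 CPM in single and 22.2, 26.2 and 31.6 CPM in weekly libraries. The weekly libraries lay below sham, and in the single group only library 3 did. The weekly log2 change was -0.71 ± 0.26 (unadjusted p = 0.0210, edgeR adjusted p = 0.549), with an unadjusted p of 0.0623 without sham library 2, 0.0727 without weekly library 1 and 0.0532 without weekly library 2. Ackr2, which clears inflammatory CC ligands and is expressed on lymphatic vessels, had 3.30 FPKM in its lowest library and a mean of 8.49 FPKM, with unadjusted p-values over 0.05 in all comparisons.

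Cxcl13, which draws B cells into follicles through Cxcr5, was at 25.6, 14.7 and 41.5 CPM in sham, 75.7, 30.0 and 14.2 CPM in single and 12.2, 13.2 and 29.5 CPM in weekly libraries. Cxcr5 was at 7.69, 11.9 and 6.69 CPM in sham, 28.4, 8.95 and 10.4 CPM in single and 6.46, 5.86 and 18.7 CPM in weekly libraries. Both genes were highest in single library 1, where B cell markers (9 of 9 measured, none at 0 throughout) summed to 156 FPKM against 43.4 to 81.7 FPKM elsewhere. The groups overlapped for both, and neither had an unadjusted p under 0.05. Cxcl17, a mucosal chemokine, was also highest in single library 1, at 74.5 CPM against 4.82 to 28.6 CPM elsewhere.

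Cx3cr1, the fractalkine receptor of patrolling monocytes and NK cells, was at 20.5, 21.1 and 19.1 CPM in sham, 20.6, 63.9 and 30.3 CPM in single and 31.4, 41.6 and 33.1 CPM in weekly libraries. All weekly libraries and single libraries 2 and 3 lay above sham, and single library 1 lay within it. The log2 change of the single group was 0.92 ± 0.36 (unadjusted p = 0.0303, edgeR adjusted p = 0.379) and 0.33 without single library 2 (unadjusted p = 0.161), the library highest in NK cell markers. It was 1.22 without single library 1 (unadjusted p = 0.00175), and the unadjusted p was 0.0618 to 0.0776 without 1 of the sham libraries. For the weekly group the unadjusted p was 0.0505, with a log2 change of 0.81 ± 0.36. The deposited locus of Cx3cr1 is shared with 5 other genes. Its ligand Cx3cl1, a membrane-bound chemokine of endothelium and epithelium, was at 43.4, 52.2 and 43.1 CPM in sham, 32.9, 31.7 and 51.4 CPM in single and 44.0, 55.5 and 55.4 CPM in weekly libraries, with overlapping groups.

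Ccl3, an inflammatory ligand of Ccr1, had 2, 2 and 1 fragments in sham, 0 in each single library and 13, 5 and 4 in weekly libraries, and is likewise named after its values were seen. All single libraries lay below sham and all weekly libraries above it. Against a floor of 3 fragments over the single group, its weekly level was 7.3-fold higher per fragment sequenced. This ratio allows for counting error in the single group only, and not for that in the weekly fragments or for the spread between libraries. Without weekly library 1, which held 13 of the 22 fragments, the ratio was 4.23-fold.

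**Figure D4:**
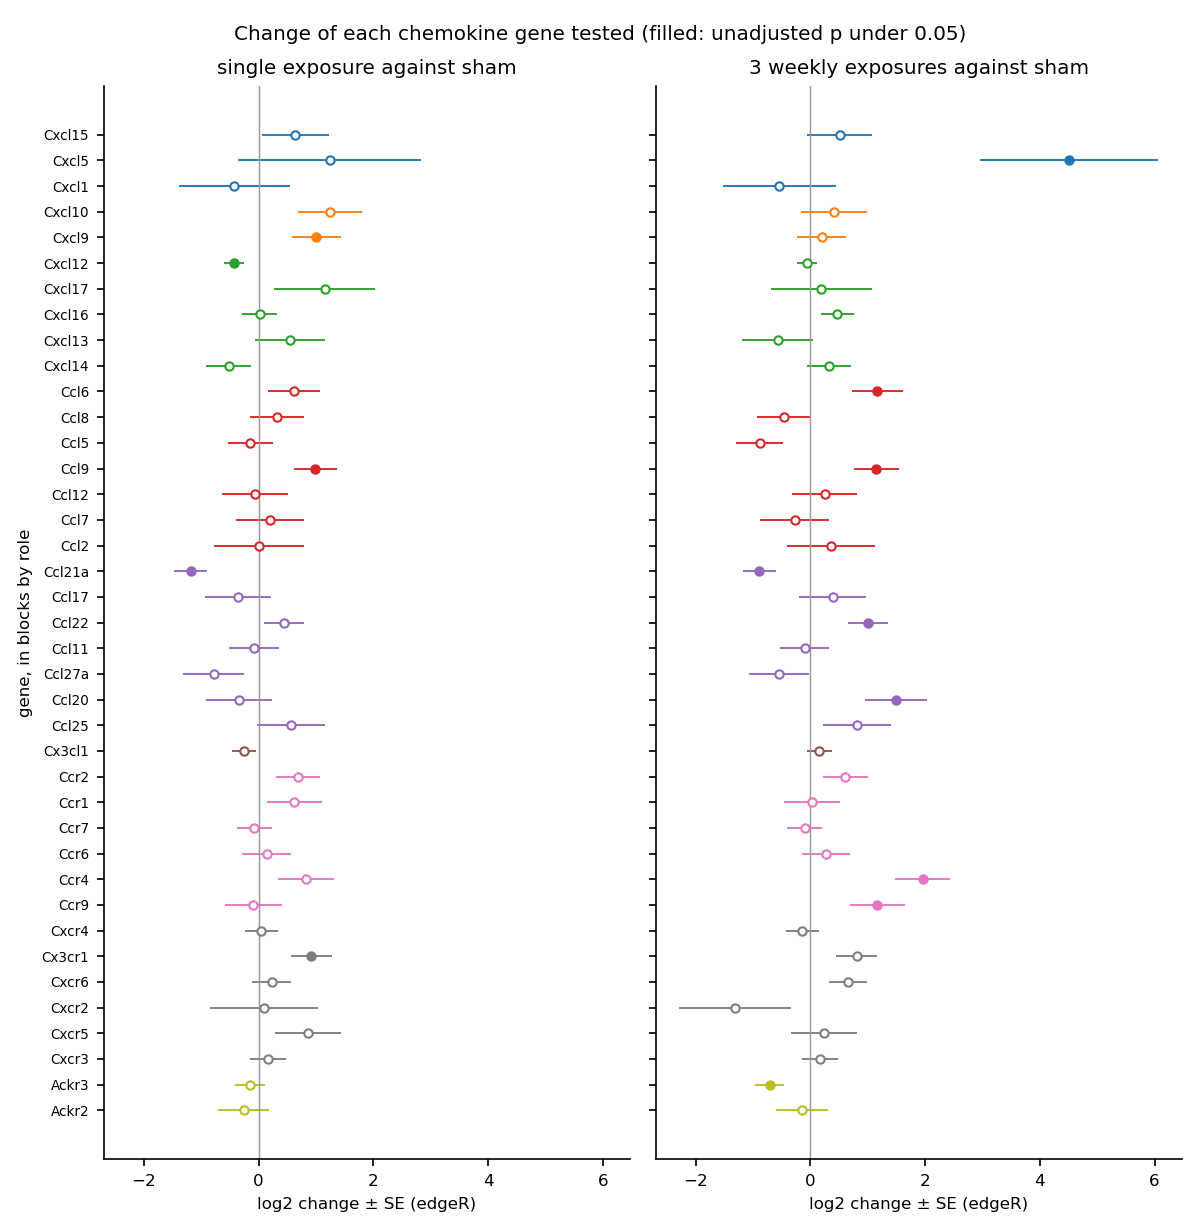
Log2 change ± SE by edgeR for 39 of the 40 chemokine genes tested, for single (left) and weekly exposure (right) against the same sham libraries, with genes in blocks by role and filled points at an unadjusted p under 0.05. Ccl21a is at -1.18 and -0.89, Ccl9 at 0.99 and 1.15, Ccr4 is filled for weekly exposure only, at 1.96, and the SE of Cxcl5 is 1.55.

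Genes that work with chemokines were read from lists of related genes, and none was called by edgeR. Over all genes, 6.60% were higher and 5.43% lower at an unadjusted p under 0.05 in the single group, and 4.26 and 3.64% in the weekly group. Of 11 tested members of the wider chemokine family, such as the platelet chemokine Ppbp and the scavenging receptor Ackr4, 1 was higher and 0 lower in the single group at an unadjusted p under 0.05. In the weekly group 2 were higher and 1 lower. Ackr4, which takes up Ccl19, Ccl21 and Ccl25, had log2 changes of 1.13 ± 0.47 in the single (unadjusted p = 0.0366) and 1.26 ± 0.46 in the weekly group (unadjusted p = 0.0230). Xcr1, the Xcl1 receptor of cross-presenting dendritic cells, had 0.88 ± 0.30 in the weekly group (unadjusted p = 0.0159). Ppbp had -0.70 ± 0.29 there (unadjusted p = 0.0382). For each of these genes the unadjusted p passed 0.05 when 1 library or another was left out: without sham library 1 it was 0.0859 and 0.0609 for Ackr4 and 0.0756 for Ppbp, and without weekly library 1 it was 0.0615 for Xcr1.

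Of 56 tested genes of receptor signalling, 3 were higher and 1 lower in the single group at an unadjusted p under 0.05, and 2 were higher and 1 lower in the weekly group, so that most of the G proteins, kinases and Rac regulators did not pass. The median log2 change of this list was 0.05 and 0.09. Plcb2, a phospholipase of leukocytes, had 0.99 ± 0.27 in the weekly group (unadjusted p = 0.00448), and Rac2, a leukocyte GTPase, had 0.70 ± 0.22 in the single group (unadjusted p = 0.0114). Of 20 cytokine and adhesion genes, 2 were higher and 1 lower in the single group, and 0 were higher and 2 lower in the weekly group. Sele, the endothelial selectin on which leukocytes roll, had -2.47 ± 0.67 in the single (unadjusted p = 0.00490) and -2.17 ± 0.66 in the weekly group (unadjusted p = 0.00887). It was low, at 6.57, 6.22 and 5.51 CPM in sham, 0.303, 1.21 and 1.76 CPM in single and 0.698, 2.59 and 0.655 CPM in weekly libraries. Sele passed the filter mainly through the sham libraries, where it is high, so these p-values cannot be taken at face value. Of 17 genes of chemokine processing and binding, none had such a p in the single group, and 4 were higher and 2 lower in the weekly group. Mmp2, a matrix protease that trims chemokines, had 0.99 ± 0.23 (unadjusted p = 0.00165), and the neutrophil protease Mmp8 had -2.77 ± 0.88 (unadjusted p = 0.0111). Mmp12, a macrophage protease, had 3.5 ± 1.11 (unadjusted p = 0.0113), which rested on weekly library 1, at 177 CPM against 9.13 and 19.5 CPM in the other weekly and 5.09 to 7.48 CPM in sham libraries. Without that library it was 1.24 (unadjusted p = 0.119).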

How the data were processed

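Per the labels' protocols, the 9 lung libraries were stranded total RNA libraries depleted of ribosomal RNA, run on a HiSeq. The submitters' processing notes name cutadapt 1.9.3, HISAT2 2.0.4 and the build mm10. How fragments were assigned to genes is not given in the sources used here. Per the file headers, the deposited values are FPKM, made by the authors, and counts. The deposited estimated counts are not whole: in each library they are multiples of a step of 0.854 to 1.19, and after division by it 91.6 to 92.9% lie within 0.1 of a whole number. They were divided by the step and rounded to whole fragments, which is the unit of all tests.

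Genes were filtered with filterByExpr (14074 kept) and normalized with TMM, and 1 quasi-likelihood fit (edgeR 4.0.16, R 4.3.3, glmQLFit and glmQLFTest) held all 9 libraries with a mean per group; it had 6 residual degrees of freedom, and the common coefficient of variation between libraries was 0.316. P-values were Benjamini-Hochberg adjusted over all genes tested, and a gene was called under 0.05. SE is the absolute log2 change over the square root of F, and CPM uses TMM factors. Shares of genes of the same kind are printed as background. Alternatives were DESeq2 1.42.0, limma 3.58.1 on log2(FPKM + 1), DESeq2's size factors, no filter, the deposited counts rounded, a replicate block, only the groups compared and each library left out. The fit was checked on simulated data. Library by library values are given for genes with an unadjusted p under 0.05 in any comparison, the gene of highest FPKM in each role group, and fixed ligand and receptor pairs; of related lists, up to 4 genes of smallest p. The members, roles, related genes and markers were chosen with earlier results of these data known. Coordinates are those of GENCODE M21 on GRCm38, counted from 1; 53 of the 54 entries were found there, and all 53 overlapped the deposited locus. Of the 54, 17 share a deposited locus with other genes, so their values are uncertain. They include Ccl2, Ccl7, Ccl8, Ccl11, Ccl12, Ccl19, Ccl21a, Ccl27a and both Ccl25 entries. The others are Cxcl10, Cxcl16, Cxcl17, Cxcr6, Ccr9, Ccr10 and Cx3cr1. Floors cover counting error in the group without fragments only, and not the spread between libraries. One gene that met the rule is counted in the totals and is not reported here or drawn.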

Additional observations from a re-analysis of the deposited data

Results flagged for a closer look

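Ccl3, a macrophage ligand of Ccr1, lay on opposite sides of sham in the irradiated groups: all single libraries were below all sham libraries and all weekly libraries above them. It had 0 fragments in the single group, 5 over the sham group and 22 over the weekly group, of which 13 were in library 1. The difference between the irradiated groups was not tested in the fit over filtered genes, because Ccl3 did not pass the filter; without the filter edgeR gave an unadjusted p of 0.00272 and an adjusted p of 0.775 for weekly against single.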

How the results depend on the processing

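edgeR called no gene in any comparison. DESeq2 called 198 (single against sham), 89 (weekly against sham), 5 (weekly against single) and 200 (both irradiated groups against sham), and without sham library 1, an alternative chosen after seeing the data, 17, 7, 4 and 24. Limma on log2(FPKM + 1) called 6, 3 and 1 in the first, the third and the last of these, and edgeR on only the groups compared called 9 for weekly against sham. With each library left out in turn, edgeR called 0 to 29 for both irradiated groups against sham and 0 to 0 in the other comparisons. The median log2 change of the chemokine genes tested then ranged from 0.00 to 0.29 (single against sham), 0.11 to 0.43 (weekly against sham), -0.05 to 0.30 (weekly against single) and 0.16 to 0.37 (both against sham). Of 424 recomputed changes of single genes with an unadjusted p under 0.05, 423 kept their direction. The exception was Cxcl5, weekly against single, which was -1.14 without weekly library 1, in a range of -1.14 to 3.84. The 2 that became called were those of Ccl21a under DESeq2, for the single group (-1.18) and for both groups (-1.03). Neither was called by DESeq2 without sham library 1. Of 25 such changes, 6 kept an unadjusted p under 0.05 whichever library was left out: Ccl21a in 3 comparisons, Ccl9 for both irradiated groups, Ccr4 for weekly against sham and Ccl20 for weekly against single. Ccr4 reached the filter's level in no sham library and Ccl20 in no single library. Their p-values are thus conditional on the libraries where they are high. The cause of these differences was not tested.

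The labels repeat replicate numbers across groups. Deviations of same-numbered libraries from their group means had correlations from -0.079 to 0.325, and those of other pairs from -0.399 to 0.256. The highest was that of single library 2 with weekly library 2. With 3 libraries per group, this cannot show whether same-numbered libraries share more than a number. With the numbers as a replicate block edgeR called 0 genes in all comparisons, with medians of the chemokine genes of 0.14, 0.23, 0.08 and 0.17. Depth limits the 14 genes not tested, with at most 76 fragments over all libraries.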
